A study of Mus musculus with 21 samples.

Results

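The dose step between 60 and 80 mM sodium lactate was examined in mouse embryonic stem cells, to ask which responses go on with dose and which have levelled off. The comparison uses all libraries labelled with these doses, 3 at 80 mM and 3 at 60 mM, which are 6 of the 21 libraries of the series, and every gene name of the lactate table. The cells are of a single line labelled OG2, a name used for mice with a green fluorescent protein transgene under the Pou5f1 promoter. The other 3 libraries of the table come from the same line with the treatment label WT and the title 0 mM, and the length of treatment is not stated in the labels. The remaining 12 libraries hold 2-cell-like cells, embryonic stem cells, epiblast stem cells and mouse embryonic fibroblasts, and serve here to define sets of cell-state genes. Of 55291 gene names, 13271 reached 1 FPKM (fragments per kilobase of transcript, scaled to the size of the library) in at least 3 of the 9 libraries and were tested.

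Lactate is the end product of glycolysis. It crosses the cell membrane with a proton through monocarboxylate transporters, can be oxidised to pyruvate by lactate dehydrogenase, and can serve as the source of lactylation, the attachment of a lactyl group to lysines of histones and other proteins. Embryonic stem cells correspond to the pluripotent cells of the blastocyst, and a small fraction of them pass at any time through a state that resembles the 2-cell embryo and transcribes Zscan4, Tcstv, Usp17l and similar genes. Sodium lactate adds sodium and raises the osmolarity of the medium together with lactate, so the doses differ in all of these, and their parts cannot be told apart.

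The 9 libraries were alike in their totals, with FPKM sums of 396792 to 409131 and 12384 to 12977 genes at 1 FPKM or more. Stem cell markers were high throughout: the summed level of 8 of them (among them Pou5f1, Sox2 and Nanog) was 2740 to 2820 FPKM at 0 mM, 2940 to 3010 at 60 mM and 3020 to 3110 at 80 mM. Of 8 fibroblast markers 6 stayed under 1 FPKM in every library and Prrx1 was listed at 0 in all, and the list sum lay between 2.03 and 5.22 FPKM. One library stands apart. 60 mM replicate 1 held 364 FPKM of structured RNAs without a poly(A) tail (such as Rn7sk, Rmrp and Rn7s1), against 14.7 to 26.6 FPKM in the other 8, and counts are therefore also given without it. Pearson correlations across genes, which are not independent replicates, were 0.991 to 0.994 within a group and 0.988 to 0.990 between 60 and 80 mM libraries. The titles number the replicates with the tag br, which may stand for biological replicate but is not spelled out. Since the labels do not say whether the replicates were grown separately, the spread behind each p-value may be technical.

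Between 60 and 80 mM, 539 genes were higher (4.06% of those tested) and 280 lower (2.11%) at an adjusted p under 0.05 by limma with Benjamini-Hochberg adjustment over all genes tested. The changes were small: 192 of the higher and 12 of the lower genes differed by 0.5 or more on the log2(FPKM + 1) scale, 6 differed by 1 or more, and the median size among the called genes was 0.319. Against 0 mM, the same fit called 3117 genes higher (23.5%) and 2474 lower (18.6%) at 60 mM, and 3977 higher (30.0%) and 3064 lower (23.1%) at 80 mM. The median gene moved by 0.013 in the step. The count fell whichever of the 6 compared libraries was left out. Leaving out 60 mM replicate 1, 2 or 3 gave 254, 309 or 343 higher and 106, 134 or 148 lower genes. Leaving out 80 mM replicate 1, 2 or 3 gave 237, 239 or 317 higher and 123, 129 or 168 lower. A smaller group can lower the count by itself, so a drop here and in the counts below does not single out a library. In the text below, log2 changes are on the log2(FPKM + 1) scale with ± standard error, which understates the change of genes near 0, means carry ± SD over 3 libraries, and adjusted p-values come from that limma fit. A gene is said to have risen or fallen where it passed it.

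The leading rises were the 12 called genes with the largest log2 change among those of at least 5 FPKM whose groups did not overlap, leaving out predicted genes known only by a Gm, Rik or clone name, some of which rose by more. The first was Spopfm1, a gene of the speckle-type POZ family. Its level was 3.19, 2.86 and 1.48 FPKM at 60 mM and 5.93, 5.65 and 5.56 at 80 mM, so that the groups did not overlap although 1 of the 60 mM libraries lay well below the other two (log2 change 0.97 ± 0.16, adjusted p = 0.00909). Cyp1a1, which encodes a cytochrome P450 that is induced through the aryl hydrocarbon receptor, stood at 4.68, 4.51 and 4.87 FPKM at 0 mM, 6.82, 6.77 and 6.57 at 60 mM and 12.3, 14.01 and 13.1 at 80 mM. The 3 libraries of each dose lay close together, and 75.9% of the whole FPKM rise from 0 to 80 mM lay in the step (log2 change 0.87 ± 0.06, adjusted p = 0.000261). P4ha2, a subunit of the enzyme that hydroxylates prolines in collagen and a gene listed here among the hypoxia-inducible factor targets, stood at 9.07, 7.63 and 8.88 FPKM at 60 mM and 16.8, 16.5 and 16.1 at 80 mM (log2 change 0.88 ± 0.10, adjusted p = 0.00208). Arg2, the mitochondrial arginase, was 2.78, 3.48 and 4.02 FPKM at 60 mM and 6.52, 7.57 and 6.95 at 80 mM (log2 change 0.86 ± 0.11, adjusted p = 0.00288). Sp110, a gene of nuclear bodies, was 7.39, 8.28 and 7.58 FPKM at 60 mM and 15.7, 14.2 and 13.98 at 80 mM (log2 change 0.84 ± 0.10, adjusted p = 0.00254). Both belong to the 2-cell list described further down. In GENCODE M21 on GRCm38 the 4 genes with a locus by name lie at chr9:57687928-57703824 (Cyp1a1), chr11:54100095-54131665 (P4ha2), chr12:79130777-79156301 (Arg2) and chr1:85576899-85598817 (Sp110).

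Imprinted and trophoblast genes were also among the leading rises. H19, an imprinted long noncoding RNA, stood at 20.5, 17.5 and 17.6 FPKM at 60 mM and 43.9, 34.3 and 29.5 at 80 mM, with a wide spread at the higher dose but every 80 mM library above every 60 mM library (log2 change 0.90 ± 0.15, adjusted p = 0.00888). Peg10, an imprinted gene of retrotransposon origin that is needed for the placenta, was 30.8, 29.9 and 29.7 FPKM at 60 mM and 52.9, 54.1 and 47.3 at 80 mM (log2 change 0.75 ± 0.05, adjusted p = 0.000261). Gata2, a zinc finger transcription factor of trophoblast and blood, was 5.11, 5.07 and 4.72 FPKM at 60 mM and 10.7, 9.98 and 8.11 at 80 mM (log2 change 0.82 ± 0.09, adjusted p = 0.002). The other leading rises were Eif4a3l1 and Eif4a3l2, which resemble the RNA helicase gene Eif4a3, Pramef25 and the deubiquitinase gene Usp17lc. Their log2 changes were 0.78, 0.76, 0.76 and 0.76, with 80 mM means of 44.9, 21.7, 8.91 and 9.81 FPKM, and they belong to families of similar copies whose share of the reads is uncertain. The loci are chr7:142575529-142578143 for H19, chr6:4747306-4760517 for Peg10 and chr6:88193891-88207032 for Gata2. All of these rises but H19, whose adjusted p was 0.0516 with no filter on low values, were called under each of 18 alternative settings.

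**Figure D1:**
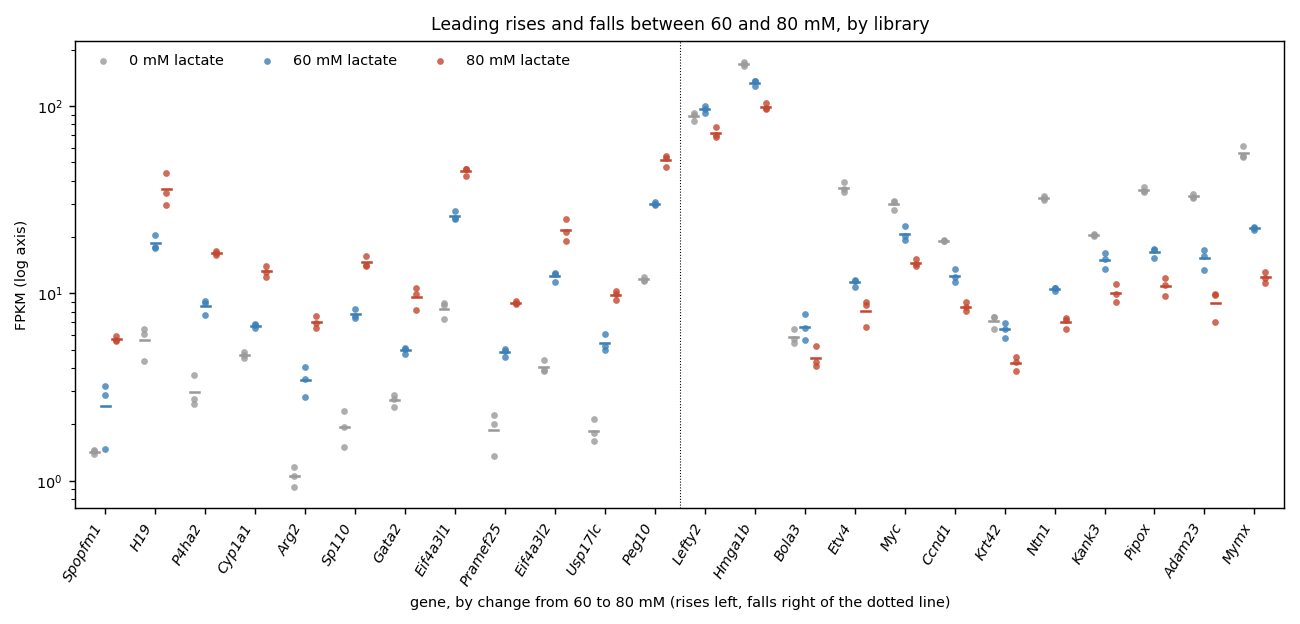
FPKM on a log axis in each of the 9 libraries for the 12 leading rises (left of the dotted line) and 12 leading falls (right) between 60 and 80 mM; points are libraries, bars are means of 3, and grey, blue and red are 0, 60 and 80 mM. The 60 and 80 mM libraries of each gene do not overlap, which the choice of genes required, and the mean of Lefty2 and Bola3 at 60 mM is no lower than at 0 mM.

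For Cyp1a1 and P4ha2 the RefSeq sequence before the start site is shown, since both belong to pathways with a known short DNA motif: GCGTG is the core of the motif read by the aryl hydrocarbon receptor, and hypoxia-inducible factors read ACGTG or GCGTG. Each sequence holds the 250 bases before the annotated start, 5′ to 3′ on the gene's strand in GRCm38.p6, with every ACGTG and GCGTG on either strand in capitals.
P4ha2 (chr11:54100674-54100923, plus strand): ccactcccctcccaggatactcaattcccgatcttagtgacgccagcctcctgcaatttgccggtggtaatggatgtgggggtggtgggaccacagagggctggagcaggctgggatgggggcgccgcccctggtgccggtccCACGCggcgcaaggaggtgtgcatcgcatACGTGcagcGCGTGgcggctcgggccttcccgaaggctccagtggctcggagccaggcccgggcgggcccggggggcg
Cyp1a1 (chr9:57697363-57697612, plus strand): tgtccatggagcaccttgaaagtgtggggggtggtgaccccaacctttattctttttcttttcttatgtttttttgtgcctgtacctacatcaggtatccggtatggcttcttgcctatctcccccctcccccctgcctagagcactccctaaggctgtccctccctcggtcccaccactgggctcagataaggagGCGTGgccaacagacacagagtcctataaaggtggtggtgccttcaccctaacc
The P4ha2 window holds 1 match to ACGTG and 2 to GCGTG, and the Cyp1a1 window 1 match to GCGTG. Matches of this kind are common: of 32851 such windows of the same length, 16.6% hold ACGTG and 28.2% hold GCGTG on either strand. The GENCODE loci given above reach further upstream than these RefSeq starts. RefSeq windows were found for 12 of the 24 leading genes.

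The leading falls included genes of growth control and of Nodal and FGF signalling. Mymx, which encodes a small membrane protein of myoblast fusion, stood at 53.1, 53.9 and 61.3 FPKM at 0 mM, 22.5, 21.8 and 22.3 at 60 mM and 12.1, 13.1 and 11.3 at 80 mM (log2 change -0.82 ± 0.06, adjusted p = 0.000404). Ccnd1, a G1 cyclin that drives entry into the cell cycle, stood at 18.98, 19.4 and 19.1 FPKM at 0 mM, 13.5, 11.4 and 12.2 at 60 mM and 8.49, 8.04 and 8.96 at 80 mM (log2 change -0.49 ± 0.06, adjusted p = 0.00298). Myc, a transcription factor of growth and ribosome production, was 30.9, 31.1 and 27.8 FPKM at 0 mM, 20.3, 22.9 and 19.3 at 60 mM and 15.3, 13.98 and 14.3 at 80 mM (log2 change -0.49 ± 0.07, adjusted p = 0.00395). For these 3 genes the libraries of 0, 60 and 80 mM form 3 separate groups in that order. Adam23, a membrane protein of the disintegrin family, was 15.8, 13.3 and 16.9 FPKM at 60 mM and 9.79, 7.06 and 9.92 at 80 mM (log2 change -0.73 ± 0.12, adjusted p = 0.00732). Pipox, a peroxisomal oxidase, was 17.1, 17.1 and 15.4 FPKM at 60 mM and 11.1, 9.69 and 12.1 at 80 mM (log2 change -0.56 ± 0.07, adjusted p = 0.0032). Kank3, an ankyrin-repeat gene, was 13.5, 16.5 and 15.2 FPKM at 60 mM and 11.2, 8.99 and 9.92 at 80 mM (log2 change -0.54 ± 0.08, adjusted p = 0.00607). In these 3 as well, every 80 mM library lay below every 60 mM library, which the choice of the leading falls required. The loci are chr7:144929931-144939925 for Ccnd1, chr15:61985391-61990374 for Myc and chr17:45600971-45602102 for Mymx.

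In 3 of the leading falls no change was called between 0 and 60 mM. The level of Lefty2, a secreted inhibitor of Nodal, was 83.7, 91.9 and 89.98 FPKM at 0 mM, 96.9, 100.2 and 92.2 at 60 mM and 68.5, 70.3 and 77.6 at 80 mM, so the 60 mM libraries lay above the 0 mM ones (first log2 change 0.12, adjusted p = 0.0938) and the fall lay in the step (log2 change -0.41 ± 0.05, adjusted p = 0.00319). Krt42, a type I keratin, was 7.51, 6.45 and 7.47 FPKM at 0 mM, 5.78, 6.99 and 6.48 at 60 mM and 4.32, 3.84 and 4.599 at 80 mM, with overlapping libraries at 0 and 60 mM (log2 change -0.50 ± 0.09, adjusted p = 0.0114). Bola3, a mitochondrial gene of iron-sulfur cluster assembly, was 6.49, 5.68 and 5.42 FPKM at 0 mM, 7.77, 6.495 and 5.66 at 60 mM and 5.22, 4.28 and 4.09 at 80 mM, again with overlap of the lower doses (log2 change -0.46 ± 0.11, adjusted p = 0.0425). The Bola3 call was lost under 9 of 18 alternative settings, with adjusted p-values up to 0.131, and among these are the fits without 60 mM replicate 1 or 2, 80 mM replicate 2 or 3, or 0 mM replicate 2 or 3. Hmga1b, which resembles the chromatin protein gene Hmga1 closely enough that their reads may be shared, fell from 133 ± 4.08 to 98.96 ± 4.21 FPKM (log2 change -0.42 ± 0.04, adjusted p = 0.000763). Ntn1, the guidance cue netrin-1, fell from 10.5 ± 0.198 to 7.04 ± 0.504 FPKM (log2 change -0.52 ± 0.05, adjusted p = 0.00133). Etv4, an ETS factor downstream of FGF, fell from 11.4 ± 0.559 to 8.07 ± 1.29 FPKM (log2 change -0.47 ± 0.10, adjusted p = 0.0216), with the Etv4 call lost without 60 mM replicate 1 or 3 and with no filter on low values (adjusted p up to 0.0835 over the alternatives).

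To sort responses into those that go on and those that have levelled off, genes were taken that were called at 60 against 0 mM with a log2 change of at least 1, of which there were 152 rises and 80 falls. A response is said to go on where the step was called in the same direction, to turn back where it was called in the other, and to have levelled off where it was not called and its 95% interval lay within -0.5 to 0.5. The rest are undecided. Going on therefore means a called step and not a large one, and the classes overlap in step size. Among rises the steps were 0.129 to 1.064 for those that went on and -0.096 to 0.276 for those that had levelled off. Of the 152 rises 80 (52.6%) went on, 44 (28.9%) had levelled off, 28 were undecided and 0 turned back. Of the 80 falls 19 (23.8%) went on, 39 (48.8%) had levelled off, 20 were undecided and 2 turned back. Both comparisons use the same 60 mM libraries, so a chance deviation of these moves the first change and the step in opposite directions. Some falls counted as levelled off were near 0 at 60 mM, such as Apol6 at 0.164 FPKM and Cntfr at 0.137. On the log2(FPKM + 1) scale these could not fall by a further 0.5. The shares of rises and falls that levelled off are therefore not comparable. Without 60 mM replicate 1, 57 rises and 14 falls went on, and 47 and 43 had levelled off, and without 80 mM replicate 2, where the fewest rises went on, 53 did. No gene met the rule for a late response, which asked for a 60 mM change within -0.5 to 0.5 that was not called and a called step of at least 1. Only 6 genes had so large a called step, so the rule says little about smaller late changes. Anxa3, Ppp1r13b and Mcm9, for example, had called steps of 0.574, 0.509 and 0.549 after changes of 0.031, 0.006 and 0.13 that were not called. For comparison, on a straight line in dose 0.25 of the whole change lies in the step, which spans 20 of the 80 mM. A gene's share depends on the scale. In FPKM it is larger for a rise that continues, and smaller for a fall that continues, than on the log2 scale.

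Among the rises that went on, the 6 described here are the largest at 60 mM under the same limits, which again leave out predicted genes. They began with Trim43a, a tripartite motif gene of the 2-cell list, Dppa3, which protects the methylation of the maternal genome in the zygote, and Fabp5, a fatty acid binding protein. Trim43a stood at 3.44, 2.17 and 2.74 FPKM at 0 mM, 24.5, 27.5 and 25.9 at 60 mM and 41.3, 40.5 and 40.7 at 80 mM (log2 change 0.64 ± 0.10, adjusted p = 0.00721). Dppa3 stood at 2.51, 2.58 and 2.83 FPKM at 0 mM, 21.4, 22.7 and 21.3 at 60 mM and 36.1, 39.1 and 34.8 at 80 mM (log2 change 0.73 ± 0.06, adjusted p = 0.000465). Fabp5 stood at 15.7, 14.2 and 15.8 FPKM at 0 mM, 71.3, 74.4 and 68.01 at 60 mM and 94.7, 93.5 and 91.3 at 80 mM (log2 change 0.38 ± 0.05, adjusted p = 0.00262). In all 3 the libraries of each dose lay above those of the dose before, and 39.1%, 43.8% and 28.2% of their FPKM rise from 0 to 80 mM lay in the step. On the log2 scale these steps followed larger changes of 2.845, 2.646 and 2.155 between 0 and 60 mM, so the shares there are smaller. On that scale Trim43a and Dppa3 at 60 mM lay 0.234 and 0.117 above the straight line, departures that were not called. Pramel6 and Pramel7, of a family expressed in the early embryo, and Bhmt, which methylates homocysteine with betaine, completed the 6, with step changes of 0.69, 0.53 and 0.69 after 1.95, 1.94 and 1.85 between 0 and 60 mM. Over all 80 rises that went on, the median log2 change was 1.25 between 0 and 60 mM and 0.60 in the step.

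Rises that had levelled off included Dmrt1, a transcription factor of sex determination and germ cells, and Mgarp, a mitochondrial membrane gene. Dmrt1 stood at 7.44, 7.28 and 7.58 FPKM at 0 mM, 20.9, 23.8 and 24.7 at 60 mM and 24.2, 23.3 and 23.6 at 80 mM, with overlapping groups at the upper doses (step 0.04, 95% interval -0.09 to 0.17). Mgarp stood at 3.59, 3.87 and 4.31 FPKM at 0 mM, 14.4, 14.8 and 13.6 at 60 mM and 16.8, 15.2 and 14.5 at 80 mM (step 0.11, interval -0.05 to 0.28). Mogat2, which makes diacylglycerol, had 1.08, 1.69 and 0.922 FPKM at 0 mM, 6.08, 5.61 and 5.89 at 60 mM and 7.29, 6.34 and 7.02 at 80 mM (step 0.20, interval -0.06 to 0.46). Rab3b, a GTPase of vesicle release, was the least precise, with 80 mM libraries at 7.13, 4.34 and 7.99 FPKM around the 60 mM mean of 6.71 (interval -0.46 to 0.33). In Slc43a3, a nucleobase transporter, the interval of 0.02 to 0.48 lay above 0, so that levelling off here means a change of under 0.5 and not the absence of one. The median step of the 44 was 0.12 after a median of 1.18 between 0 and 60 mM.

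**Figure D2:**
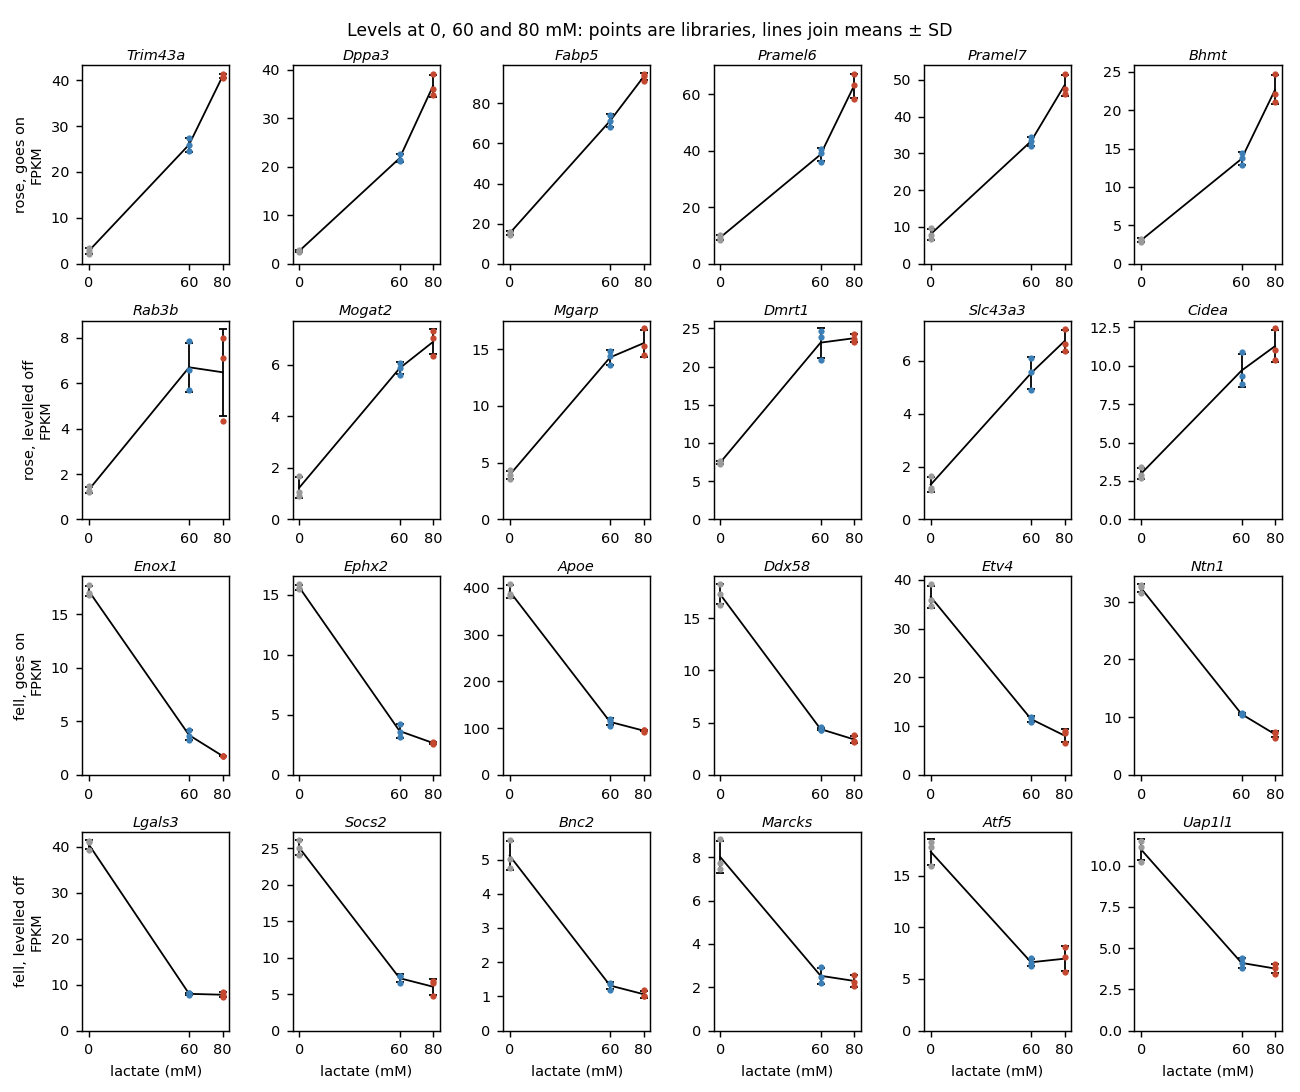
FPKM at 0, 60 and 80 mM for the 6 largest responses at 60 mM in each of 4 classes, among genes of at least 5 FPKM that are not predicted genes by name, from top to bottom rises that go on, rises that have levelled off, falls that go on and falls that have levelled off; points are libraries, lines join the means and bars are SD of 3 libraries. The curves of Trim43a to Bhmt keep climbing to 80 mM, while Dmrt1 and Lgals3 run flat between 60 and 80 mM.

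Among falls that went on, Enox1, a cell-surface oxidoreductase, stood at 17.7, 16.8 and 16.96 FPKM at 0 mM, 4.22, 3.26 and 3.66 at 60 mM and 1.76, 1.804 and 1.74 at 80 mM (log2 change -0.76 ± 0.08, adjusted p = 0.00133), with 3 separate groups. Apoe, the lipid carrier apolipoprotein E, was 382, 386 and 409 FPKM at 0 mM, 116, 119 and 105 at 60 mM and 95.2, 92.9 and 96.1 at 80 mM (log2 change -0.26 ± 0.04, adjusted p = 0.0117). Although it was called, this step was small beside the fall of 1.78 between 0 and 60 mM, and 6.29% of the FPKM fall lay in it. The same holds for Ephx2, a soluble epoxide hydrolase, at 7.67%, and for Ddx58, the cytosolic RNA sensor RIG-I, at 7.12%. On the log2 scale the steps of Ephx2 and Ddx58 were -0.34 and -0.295, after -1.843 and -1.761 between 0 and 60 mM. For all 3 genes the step holds a larger share on that scale than in FPKM. Vim, the intermediate filament of mesenchymal cells, went from 60.8 ± 3.42 to 48.05 ± 1.39 FPKM (log2 change -0.33 ± 0.05, adjusted p = 0.005). Gbx2, a homeobox gene of naive cells, went from 4.41 ± 0.139 to 2.48 ± 0.586 FPKM (log2 change -0.65 ± 0.11, adjusted p = 0.0091).

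The clearest fall that had levelled off was that of Lgals3, which encodes the sugar-binding protein galectin-3. Its libraries were at 41.1, 39.4 and 41.2 FPKM at 0 mM, 8.13, 7.71 and 8.15 at 60 mM and 7.296, 8.38 and 7.73 at 80 mM, so the fall by 2.21 on the log2 scale was in place at 60 mM and the upper doses overlapped (step -0.03, interval -0.15 to 0.09). Atf5, a stress-responsive transcription factor, was at 17.8, 15.9 and 18.3 FPKM at 0 mM, 6.58, 6.99 and 6.28 at 60 mM and 7.11, 5.699 and 8.07 at 80 mM (step 0.05, interval -0.17 to 0.28). Socs2, a feedback inhibitor of cytokine signalling, was at 24.96, 26.1 and 24.1 FPKM at 0 mM, 6.51, 7.496 and 7.52 at 60 mM and 4.74, 6.52 and 6.76 at 80 mM (step -0.23, interval -0.47 to 0.01). Marcks, a kinase substrate at the cell membrane, Bnc2, a zinc finger gene, and Uap1l1 had step intervals of -0.32 to 0.13, -0.36 to 0.03 and -0.27 to 0.07.

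Tfeb and Parvb were the 2 genes that turned back. Tfeb, the transcription factor that drives lysosome and autophagy genes, stood at 16.6, 17.7 and 17.9 FPKM at 0 mM, 6.83, 7.63 and 7.504 at 60 mM and 10.1, 8.69 and 8.91 at 80 mM, a fall of 1.15 followed by a rise (log2 change 0.29 ± 0.07, adjusted p = 0.0291). Parvb, an actin-binding protein of focal adhesions, stood at 22.8, 22.3 and 22.6 FPKM at 0 mM, 9.98, 8.71 and 9.06 at 60 mM and 10.7, 11.2 and 10.9 at 80 mM (log2 change 0.22 ± 0.05, adjusted p = 0.0391). In both genes all 80 mM libraries lay above the 60 mM and below the 0 mM libraries. Both calls were fragile. The step of Parvb was lost without any single library other than 60 mM replicate 1, and that of Tfeb was lost without any one of the 60 mM libraries or without 80 mM replicate 1 or 3.

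**Figure D3:**
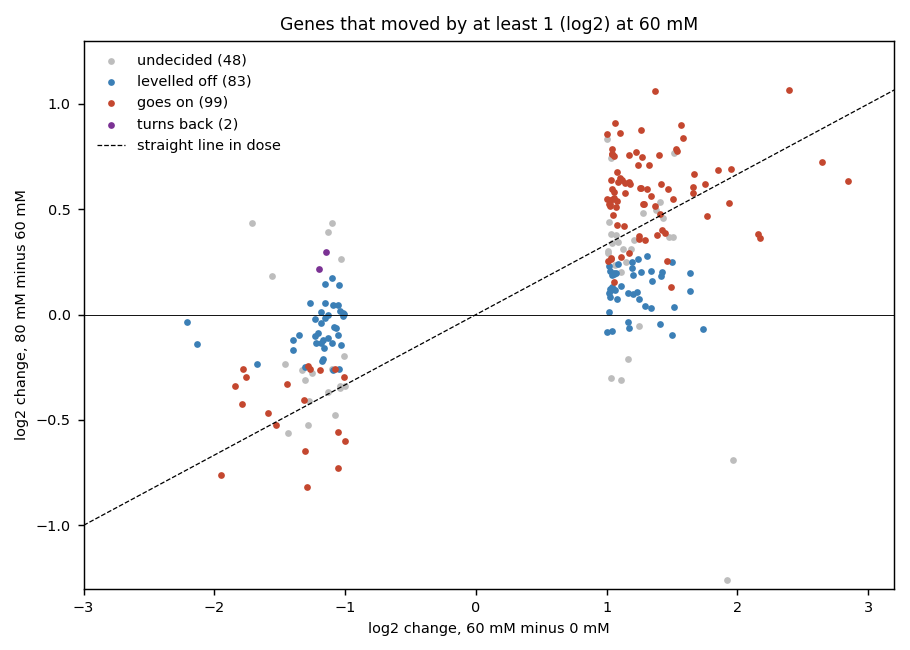
Log2 change from 0 to 60 mM (horizontal) against log2 change from 60 to 80 mM (vertical) for the 232 genes called at 60 mM with a change of at least 1, coloured by class, with the number of genes in the key; the dashed line is where a gene would lie on a straight line in dose, and 1 undecided fall, Rps18-ps6, lies outside the axes. Most rises sit above 0 on the vertical axis, and the 39 falls that have levelled off crowd around 0.

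A direct test asked whether the 60 mM level departed from a straight line in dose between 0 and 80 mM on the log2 scale. It called 8 genes above the line (0.0603% of those tested) and 13 below it (0.098%), so for nearly all genes a bend was not detectable with 3 libraries a dose, and levelling off as defined above does not show one. The largest departures below the line were Cyp1a1 (-0.54, adjusted p = 0.00703), which rose mostly in the step, Lgals3 (-0.53, adjusted p = 0.00703), which fell before it, and Tfeb (-0.51, adjusted p = 0.0182), which turned back. Among the genes above the line were Lefty2 (0.34, adjusted p = 0.042), whose fall on the log2 scale lay mostly in the step, and Dmrt1 (0.35, adjusted p = 0.044), which rose before it. Klhl13, counted among the rises that went on, was also above the line (0.277, adjusted p = 0.00703). Its mean was 33.6 FPKM at 0 mM, 96.4 at 60 mM and 105 at 80 mM, with a step of 0.129. When single libraries were left out, 1 to 7 genes were above and 4 to 11 below the line, with the highest of both counts without 80 mM replicate 3.

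Genes of the 2-cell embryo programme went on rising. Of 49 listed genes 46 were in the table and 40 passed the filter on low values, 1 of them (Trim43c, not called) only through the 80 mM libraries. Of the 40, 31 rose in the step (77.5%, against 4.06% of all genes tested), Eif1a fell and 8 did not pass the test, and the median log2 change was 0.60, against 0.013 over all genes tested. Without 60 mM replicate 1, 80 mM replicate 1 or 80 mM replicate 2 the numbers that rose were 26, 26 and 23. Their summed level was 242 to 254 FPKM at 0 mM, 477 to 507 at 60 mM and 694 to 740 at 80 mM. In bulk RNA, more cells in the 2-cell-like state and more of these transcripts per cell cannot be told apart. Between 0 and 60 mM the list's median was 1.01, with 38 genes higher and 1 lower. The median share of the FPKM rise from 0 to 80 mM that lay in the step was 49.9%, and 0 genes were called above and 0 below the straight line.

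Zscan4c, a zinc finger gene of the 2-cell embryo, stood at 16.4, 16.1 and 15.6 FPKM at 0 mM, 33.2, 32.9 and 35.9 at 60 mM and 49.9, 53.7 and 52.2 at 80 mM (log2 change 0.59 ± 0.04, adjusted p = 0.000404). Zfp352, a retrotransposed zinc finger gene, was 0.488, 0.502 and 0.554 FPKM at 0 mM, 2.18, 2.44 and 1.84 at 60 mM and 4.48, 4.28 and 4.14 at 80 mM (log2 change 0.75 ± 0.09, adjusted p = 0.00244). In both, the libraries of the 3 doses formed separate groups in the order of dose. Tcstv3, a 2-cell-specific transcript, was 6.19, 5.03 and 6.41 FPKM at 60 mM and 8.97, 10.4 and 9.65 at 80 mM (log2 change 0.64 ± 0.14, adjusted p = 0.0264). Usp17la, a deubiquitinase gene, was 3.12, 3.57 and 3.94 FPKM at 60 mM and 5.64, 5.21 and 5.502 at 80 mM (log2 change 0.51 ± 0.10, adjusted p = 0.0144). The largest step of the list was that of Gm4340 at 0.89, and the genes that did not pass were Usp17lb, Tcstv1, Trim43c, Zscan4a, Zfp560, Tmem92, Lgals4 and Zfp750, with log2 changes from 0.50 to 0.09. Eif1a, a translation initiation factor kept in the list for its 2-cell-specific relatives, went from 71.5 to 62.3 FPKM (log2 change -0.20, adjusted p = 0.0125). The loci are chr7:11005745-11010547 (Zscan4c), chr4:90218820-90225702 (Zfp352), chr13:120316878-120318178 (Tcstv3) and chr7:104857009-104862667 (Usp17la).

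The Zscan4 genes are near-identical copies, and their promoters show how close they are. These are the 250 bases before the RefSeq start of Zscan4b and Zscan4f in GRCm38.p6, 5′ to 3′ on the gene's strand, with the bases that differ between them in capitals.
Zscan4b (chr7:10905051-10905300, minus strand): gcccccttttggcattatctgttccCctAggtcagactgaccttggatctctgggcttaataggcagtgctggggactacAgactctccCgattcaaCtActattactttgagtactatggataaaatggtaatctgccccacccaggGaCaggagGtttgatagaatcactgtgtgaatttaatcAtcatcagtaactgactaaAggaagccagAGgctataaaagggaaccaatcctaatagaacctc
Zscan4f (chr7:11397665-11397914, plus strand): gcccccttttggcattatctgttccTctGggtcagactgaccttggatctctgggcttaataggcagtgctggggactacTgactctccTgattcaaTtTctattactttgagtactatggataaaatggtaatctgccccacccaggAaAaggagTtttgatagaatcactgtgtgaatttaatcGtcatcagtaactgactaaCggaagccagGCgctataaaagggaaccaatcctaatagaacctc
These differ at 13 of 250 bases (94.8% identical). After the best shift without gaps, the windows of Zscan4c and Zscan4f differ at 1 of 227 bases (99.6% identical), and the 6 pairs among Zscan4b, Zscan4c, Zscan4d and Zscan4f range from 94.7 to 99.6%. Each of these 4 windows holds 1 TATAAA, which 12.4% of all windows of this length hold on either strand. The step changes of these copies on the log2 scale were 0.59 for Zscan4b, 0.59 for Zscan4c, 0.70 for Zscan4d and 0.57 for Zscan4f, and the split of FPKM among them is uncertain.

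**Figure D4:**
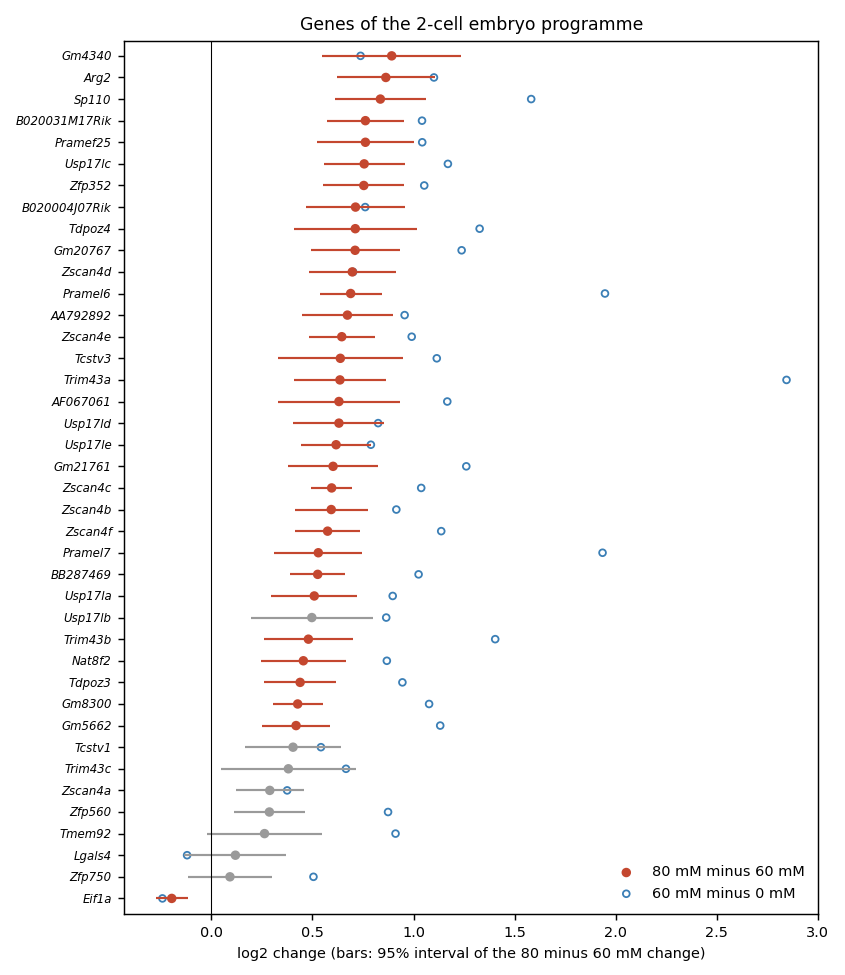
Log2 change of the 40 tested genes of the 2-cell programme between 60 and 80 mM (filled points, with 95% intervals; red where called, grey where not) and between 0 and 60 mM (open circles). Intervals of the red genes other than Eif1a lie above 0, and for most genes the open circle lies to the right of the filled point.

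Trophectoderm genes, which mark the outer cells of the blastocyst, rose in part. Of 22 listed genes 15 were tested, and Fgfr2 and Rhox6 passed the filter only through the 80 mM libraries, so these are counted apart. Of the other 13, 5 rose (38.5%, against 4.06% of all genes tested) and 0 fell, with a median of 0.27. Without any one of the 80 mM libraries 4 of 13 rose, and without 60 mM replicate 1, Fgfr2 and Rhox6 included, 5 of 15. Besides Gata2, Peg10 and the claudin gene Cldn4 these were Krt18 and Cdx2. The rise of Cldn4 was a partial return, with means of 24.6 FPKM at 0 mM, 14.5 at 60 mM and 19.2 at 80 mM. Peg10 is also counted among the imprinted genes and Cldn4 among the adhesion genes below. Krt18, a keratin of simple epithelia, was 4.501, 4.11 and 4.05 FPKM at 60 mM and 8.56, 7.05 and 6.34 at 80 mM (log2 change 0.66 ± 0.10, adjusted p = 0.00539). Cdx2, the factor that sets trophectoderm identity, was 3.83, 3.67 and 4.05 FPKM at 60 mM and 5.18, 4.96 and 5.01 at 80 mM (log2 change 0.32 ± 0.07, adjusted p = 0.025). Fgfr2, the receptor for trophoblast FGF signals, was 0.781, 0.915 and 0.873 FPKM at 60 mM and 1.66, 1.83 and 1.798 at 80 mM, given with no test. The 60 and 80 mM groups of Krt18, Cdx2 and Fgfr2 were separate. Gata3, another trophoblast factor, had levelled off at 6.24, 6.297 and 6.85 FPKM at 60 mM and 8.38, 6.87 and 7.43 at 80 mM (step 0.20, interval -0.01 to 0.40). Elf5 and Krt7 stayed under 1 FPKM in every library, and Hand1 reached at most 1.08 FPKM. The summed level of 6 trophoblast markers was 15.7 to 16.9 FPKM at 60 mM and 18.2 to 19.9 at 80 mM.

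Of 23 tested imprinted genes, which are expressed from 1 parental copy, 4 rose (17.4%, against 4.06% of all genes) and 0 fell, with a median of 0.13. Without 60 mM replicate 1, 2 rose and 1 fell. Sgce, a neighbour of Peg10, was 2.197, 1.86 and 2.26 FPKM at 60 mM and 3.81, 4.196 and 3.18 at 80 mM (log2 change 0.60 ± 0.12, adjusted p = 0.0216). Snrpn, a spliceosome protein gene, was 57.1, 55.7 and 55.9 FPKM at 60 mM and 61.1, 63.5 and 63.1 at 80 mM (log2 change 0.15 ± 0.04, adjusted p = 0.0348). H19 and Peg10 were the other two rises, and each of the 4 had separate groups at 60 and 80 mM. Meg3, a noncoding RNA of another imprinted cluster, had fallen at 60 mM and stood at 50.5, 47.9 and 46.8 FPKM there and 43.2, 44.98 and 48 at 80 mM (step -0.09, interval -0.22 to 0.04).

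Primitive endoderm genes, of the cells that form the yolk sac, gave 4 rises and 1 fall among 11 tested (36.4% and 9.09%, against 4.06% and 2.11% of all genes), with a median of 0.10, and 2 rises and 1 fall without 60 mM replicate 1. Dab2, an endocytic adaptor, was 1.16, 1.56 and 1.52 FPKM at 0 mM, 5.75, 5.51 and 5.47 at 60 mM and 7.76, 7.78 and 7.25 at 80 mM (log2 change 0.39 ± 0.08, adjusted p = 0.0211). Lrp2, an endocytic receptor that Dab2 binds, was 6.03, 6.14 and 6.89 FPKM at 60 mM and 10.4, 9.898 and 8.503 at 80 mM (log2 change 0.53 ± 0.08, adjusted p = 0.00607). The matrix genes Sparc and Lama1 rose by 0.23 and 0.19, and the fall was that of Apoe. The defining factors Gata4, Gata6, Sox17 and Sox7 and the receptor Pdgfra stayed under 1 FPKM in every library, and the summed level of these 5 and Dab2 was 6.51 to 6.75 FPKM at 60 mM and 8.62 to 9.92 at 80 mM. The part of such cells in the rises was not tested.

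For the core pluripotency factors no step was called, with narrow intervals, while several genes of their lists fell. Pou5f1, or Oct4, was 667, 673 and 668 FPKM at 60 mM and 671, 670.2 and 684 at 80 mM (step 0.01, interval -0.04 to 0.06). Sox2, its partner, was 234, 221 and 238 FPKM at 60 mM and 231, 235 and 246 at 80 mM (step 0.04, interval -0.04 to 0.12). Nanog, a homeobox factor of the same network, was 279.7, 289 and 285 FPKM at 60 mM and 285, 294 and 299 at 80 mM (step 0.04, interval -0.03 to 0.11). The groups overlapped for all 3. Of 18 core pluripotency genes 1 rose (5.56%, against 4.06% of all genes tested) and 4 fell (22.2%, against 2.11%). Their median was -0.01, and 0 rose and 2 fell without 60 mM replicate 1. Lin28a, an RNA-binding protein that blocks let-7 maturation, fell from 26.3 ± 1.16 to 19.7 ± 0.463 FPKM (log2 change -0.40 ± 0.04, adjusted p = 0.00153). L1td1, an RNA-binding protein of transposon origin, fell from 160.5 ± 4.38 to 132 ± 0.628 FPKM (log2 change -0.28 ± 0.03, adjusted p = 0.00133). The chromatin gene Utf1 and the zinc finger gene Sall1 fell by 0.28 and 0.22 on the log2 scale, and the rise was Trim28, described with the repressors. Among 32 naive pluripotency genes 3 rose (9.38%) and 5 fell (15.6%), or 3 and 3 without 60 mM replicate 1. Prdm16 passed the filter only through its 80 mM libraries, and of the other 31 genes 3 rose (9.68%). Klf4, a naive pluripotency factor, was 84.3, 84.7 and 79.9 FPKM at 60 mM and 94.8, 92.96 and 96.98 at 80 mM (log2 change 0.19 ± 0.03, adjusted p = 0.0116), and Dppa3 also rose. The orphan receptor gene Nr0b1, the threonine dehydrogenase gene Tdh and the naive factor Tfcp2l1 fell by 0.26, 0.25 and 0.11, beside Gbx2. Of 20 primed pluripotency genes 1 rose (5.0%), Krt18, and 3 fell (15.0%), Etv4, Lefty2 and Zic2, or 1 and 1 without 60 mM replicate 1.

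In the lists of growth and the cell cycle the called genes fell. Of 17 tested genes in a list of G1 cyclins, inhibitors and related regulators 4 fell (23.5%, against 2.11% of all genes tested) and 0 rose. The falls were Ccnd1, Myc, Rbl1 and Cdk4, of which only Ccnd1 encodes a G1 cyclin. The median of the list was -0.0. Cdk4, the kinase partner of cyclin D, was 186, 188 and 177 FPKM at 60 mM and 169.7, 163 and 168 at 80 mM (log2 change -0.14 ± 0.03, adjusted p = 0.0264), and Rbl1, a relative of the retinoblastoma gene, fell by 0.31. Of 33 DNA replication genes 6 fell (18.2%) and 0 rose, with a median of -0.09. Uhrf1, which recruits the maintenance methyltransferase to new DNA, was 150.1, 150.3 and 152 FPKM at 60 mM and 129, 119 and 122 at 80 mM (log2 change -0.29 ± 0.03, adjusted p = 0.002). The replication clamp gene Pcna, the helicase genes Mcm6 and Gins2 and the polymerase gene Pola1 fell by 0.16, 0.15, 0.29 and 0.27 on the log2 scale. Of 30 nucleolar ribosome biogenesis genes 7 fell (23.3%) and 0 rose, with a median of -0.09. Npm1, a nucleolar histone chaperone, was 1179, 1147 and 1146 FPKM at 60 mM and 1043, 1056 and 1079 at 80 mM (log2 change -0.13 ± 0.03, adjusted p = 0.0174), and nucleolin, Ncl, and the nucleolar GTPase gene Gnl3 fell by 0.15 and 0.22. These changes were small, and without 60 mM replicate 1 the numbers that fell were 2, 1 and 2 for the cyclin list, replication and ribosome biogenesis. Of 78 tested ribosomal protein genes 0 were called in either direction, as were 0 of 70 oxidative phosphorylation genes and 0 of 13 mitochondrially encoded genes, by limma. At an unadjusted p under 0.05 these lists had 0, 5 and 0 genes higher and 7, 5 and 2 lower, and no alternative setting called more than 2 genes of any of them in either direction.

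In the FGF and ERK list, of receptors, targets and feedback inhibitors, 19 genes were tested, with Fgfr2 only through its 80 mM libraries. Of the other 18, by limma, 0 rose and 4 fell, Etv4, Myc, Ccnd1 and Dusp6, and without 60 mM replicate 1 the number that fell was 2. The 4 falls are 21.1% of the 19 tested, against 2.11% of all genes tested. Myc and Ccnd1 are also counted in the cyclin list above. Dusp6, the phosphatase that turns ERK off, was 9.44, 9.79 and 8.69 FPKM at 60 mM and 7.33, 6.35 and 7.65 at 80 mM (log2 change -0.35 ± 0.07, adjusted p = 0.0199). Spry4, another feedback inhibitor, stood at 5.11, 4.99 and 5.44 FPKM at 60 mM and 4.19, 4.24 and 4.197 at 80 mM and did not pass the test (adjusted p = 0.0689). Of 22 Nodal, BMP and Wnt genes 1 rose (4.55%, near the 4.06% of all genes tested), leaving out Dkk1, which passed the filter only through its 80 mM libraries. With Dkk1 counted, 2 of 23 fell (8.7%, against 2.11%), Lefty2 among them. Id2, an inhibitor of helix-loop-helix factors, rose by 0.47. Dkk1, a secreted Wnt inhibitor, was 1.34, 0.565 and 0.713 FPKM at 60 mM and 2.76, 1.97 and 2.11 at 80 mM, given with no test. Lefty1, the relative of Lefty2, stood at 2.92, 3.18 and 4.37 FPKM at 60 mM and 2.11, 2.48 and 2.79 at 80 mM (adjusted p = 0.106).

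Genes of lactate and glucose handling gave mixed steps. Of 22 tested lactate and pyruvate genes 4 rose and 1 fell, or 3 and 1 without 60 mM replicate 1. Ldhb, the lactate dehydrogenase subunit linked to lactate oxidation, stood at 25.8, 23.5 and 24.1 FPKM at 0 mM, 23.9, 25.1 and 23.9 at 60 mM and 29.8, 29.4 and 29.8 at 80 mM, with no difference called between 0 and 60 mM (log2 change 0.28 ± 0.04, adjusted p = 0.00618). Pcx, which makes oxaloacetate from pyruvate, was 9.398, 9.34 and 9.02 FPKM at 0 mM, 8.61, 8.11 and 8.39 at 60 mM and 10.5, 10.8 and 10.3 at 80 mM, with none called between 0 and 60 mM either (log2 change 0.30 ± 0.05, adjusted p = 0.00786). Me1, the cytosolic malic enzyme, rose by 0.25, and Pdha1, a subunit of pyruvate dehydrogenase, fell by 0.18 on the log2 scale. The lactate transporter gene Slc16a1 was at 37.8, 36.5 and 37.1 FPKM at 60 mM and 34.9, 35.4 and 37.2 at 80 mM (step -0.05, interval -0.13 to 0.03), and Ldha had a step of 0.04 (interval -0.06 to 0.14). Of 24 glycolysis genes 3 rose (12.5%, against 4.06% of all genes tested) and 0 fell, or 2 and 0 without 60 mM replicate 1. Slc2a1, a glucose transporter, was 86.7, 87.9 and 85.9 FPKM at 60 mM and 108, 107 and 108 at 80 mM (log2 change 0.30 ± 0.03, adjusted p = 0.00118), and its relative Slc2a3 and the hexokinase gene Hk1 rose by 0.24 and 0.24. By the same limma fit, 0 of 22 tricarboxylic acid cycle genes were called, with 4 higher and 0 lower at an unadjusted p under 0.05.

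Of 24 tested hypoxia-inducible factor targets 4 rose (16.7%, against 4.06% of all genes) and 0 fell, with a median of 0.09, or 3 and 0 without 60 mM replicate 1. Besides P4ha2 and Slc2a1, Ddit4, an inhibitor of mTOR signalling, was 12.6, 12.5 and 11.9 FPKM at 60 mM and 17.03, 17.6 and 17.3 at 80 mM (log2 change 0.46 ± 0.06, adjusted p = 0.00244), and the Myc antagonist Mxi1 rose by 0.27. For other well-known targets no step was called. The growth factor gene Vegfa had a step of 0.10 (interval -0.04 to 0.23), the mitophagy gene Bnip3 of 0.01 (-0.21 to 0.23) and the oxygen sensor Egln3 of -0.01 (-0.24 to 0.22). Car9, a carbonic anhydrase, reached at most 0.193 FPKM in any library.

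Of 20 tested osmotic stress genes Slc6a12 passed the filter only through its 80 mM libraries. Of the other 19, 3 rose (15.8%, against 4.06% of all genes) and 0 fell, with a median of 0.04, and 2 of 19 rose without any one of the 80 mM libraries. Without 60 mM replicate 1, with Slc6a12 included, 3 of 20 rose. Slc6a12, the transporter of the osmolyte betaine, stood at 0.164, 0.133 and 0.240 FPKM at 0 mM, 0.517, 0.491 and 0.515 at 60 mM and 1.49, 1.61 and 1.92 at 80 mM, given with no test, and every library of a dose lay above those of the dose before. Sgk1, a kinase induced by salt and serum, was 98.1, 107 and 99.96 FPKM at 0 mM, 182, 186 and 176 at 60 mM and 209.8, 221 and 208 at 80 mM (log2 change 0.23 ± 0.04, adjusted p = 0.00815). Atp1b3, a subunit of the sodium pump, was 51.9, 51.8 and 51.7 FPKM at 0 mM, 55.4, 55.6 and 55.9 at 60 mM and 63.05, 64.96 and 64.3 at 80 mM (log2 change 0.20 ± 0.03, adjusted p = 0.00354). The amino acid transporter Slc38a2 rose by 0.17. Slc6a6 and Akr1b3, of taurine uptake and sorbitol synthesis, had step intervals of -0.13 to 0.03 and -0.09 to 0.04, Nfat5, the tonicity-responsive transcription factor, of -0.45 to 0.23, and Slc5a3, the inositol transporter, was at 0.907 to 1.02 FPKM at 80 mM and 0.629 to 0.685 at 60 mM, below the filter.

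Of 32 tested autophagy and lysosome genes 9 rose in the step (28.1%, against 4.06% of all genes) and 0 fell, with a median of 0.12, where between 0 and 60 mM 9 had risen and 11 had fallen. Without 60 mM replicate 1 the number that rose was 3. Tfeb was among the 9. Ctsd, the lysosomal protease cathepsin D, was 86.3, 82.6 and 83.5 FPKM at 0 mM, 76.3, 78.8 and 74.3 at 60 mM and 91.5, 87.95 and 87.4 at 80 mM (log2 change 0.21 ± 0.03, adjusted p = 0.00641). Grn, the lysosomal protein progranulin, was 60.2, 59.8 and 58.1 FPKM at 0 mM, 50.2, 53.95 and 51.1 at 60 mM and 62.2, 57.6 and 60.2 at 80 mM (log2 change 0.21 ± 0.04, adjusted p = 0.0141). Both had been called lower at 60 than at 0 mM, and at 80 mM Ctsd lay above its 0 mM libraries while Grn overlapped them. Gabarapl2, which joins the autophagosome membrane, rose at both intervals, with 137, 143 and 131 FPKM at 0 mM, 201, 209.5 and 207 at 60 mM and 235, 252 and 243 at 80 mM (log2 change 0.24 ± 0.04, adjusted p = 0.00641). Lamp1 and Sqstm1, at 0.08 and 0.11, did not pass.

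Of 28 adhesion and matrix genes 7 rose (25.0%, against 4.06% of all genes) and 1 fell (3.57%, against 2.11%), or 5 and 1 without 60 mM replicate 1 and 4 and 1 without 80 mM replicate 1. The tight junction gene Cldn4 was at 24.5, 24.4 and 24.8 FPKM at 0 mM, 15.3, 13.9 and 14.2 at 60 mM and 21.3, 18.1 and 18.3 at 80 mM, a called fall followed by a rise (log2 change 0.39 ± 0.06, adjusted p = 0.00825). Its relative Cldn6 rose at both intervals, with 1.13, 1.33 and 1.41 FPKM at 0 mM, 3.89, 3.22 and 3.82 at 60 mM and 6.42, 5.29 and 5.31 at 80 mM (log2 change 0.52 ± 0.10, adjusted p = 0.0139). Cdh1, E-cadherin, rose by 0.12 and the laminin gene Lama1 by 0.19, and Vim was the gene that fell.

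Other lists had many called members between 0 and 60 mM, and their shares in the step are read against 4.06% higher and 2.11% lower among all genes. The nuclear-encoded oxidative phosphorylation genes had 2 higher and 39 lower members of 70 at 60 against 0 mM (median -0.14) and a step median of 0.01. ATF4 amino acid response genes had 3 higher and 20 lower of 28 at 60 mM (median -0.36), and in the step 2 rose (7.14%) and 1 fell (3.57%), with a median of 0.06, or 1 and 1 without 60 mM replicate 1. Atf4, the transcription factor of the list, was 129, 120.1 and 131 FPKM at 0 mM, 99.8, 103 and 103 at 60 mM and 102, 101 and 107 at 80 mM (step 0.02, interval -0.07 to 0.10), while Slc7a3, a transporter of basic amino acids, was 37.7, 36.3 and 35.4 FPKM at 60 mM and 27.7, 26.5 and 29.1 at 80 mM (log2 change -0.38 ± 0.04, adjusted p = 0.002). Of 21 aminoacyl-tRNA synthetase genes 14 were lower at 60 mM (median -0.28) and 3 fell in the step (14.3%), those for asparagine (Nars), leucine (Lars) and valine (Vars), by 0.17, 0.14 and 0.11 on the log2 scale, or 1 without 60 mM replicate 1. These medians do not exclude small further changes, since the median half-width of a step interval was 0.172.

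Splicing and lactylation are subjects that the title of the series names. Of 63 tested core spliceosome genes 3 rose (4.76%, against 4.06% of all genes) and 1 fell (1.59%, against 2.11%), shares near those of all genes, or 0 and 1 without 60 mM replicate 1. Cwc22, which joins the spliceosome to exon junction marking, was 26.1, 26.9 and 26.2 FPKM at 60 mM and 34.1, 33.05 and 32.1 at 80 mM (log2 change 0.31 ± 0.06, adjusted p = 0.0142), and the spliceosomal genes Aqr and Cdc5l rose by 0.15 and 0.12, while Lsm7 fell by 0.19. Of 55 SR protein, hnRNP and other regulator genes 0 rose and 3 fell (5.45%), or 0 and 1 without 60 mM replicate 1. Hnrnph2, an RNA-binding splicing regulator, was 25.2, 25.7 and 23.2 FPKM at 60 mM and 20.3, 19.9 and 21.1 at 80 mM (log2 change -0.26 ± 0.06, adjusted p = 0.0228), and Tra2b and Hnrnpm fell by 0.20 and 0.11. By limma, 0 of 21 acyltransferases, deacylases and other genes linked to lactylation were called (2 higher and 5 lower at an unadjusted p under 0.05), with step intervals of -0.10 to 0.15 for the acetyltransferase gene Ep300, -0.28 to -0.01 for Kat5 and -0.12 to -0.02 for Aars, which are not adjusted for the number of genes. Of 36 repressors of the 2-cell programme and chromatin genes 1 rose (2.78%) and 6 fell (16.7%), or 0 and 2 without 60 mM replicate 1. Trim28, the corepressor of retrotransposons, was 714, 713 and 694 FPKM at 60 mM and 758, 752 and 753 at 80 mM (log2 change 0.09 ± 0.02, adjusted p = 0.0251). Besides Uhrf1 and Myc, the heterochromatin gene Cbx3 and the chromatin remodeller gene Atrx fell by 0.23 and 0.24. The histone methyltransferase gene Setdb1, the demethylase gene Kdm1a and the histone chaperone gene Chaf1a had step intervals of -0.01 to 0.14, -0.06 to 0.08 and -0.09 to 0.05.

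**Figure D5:**
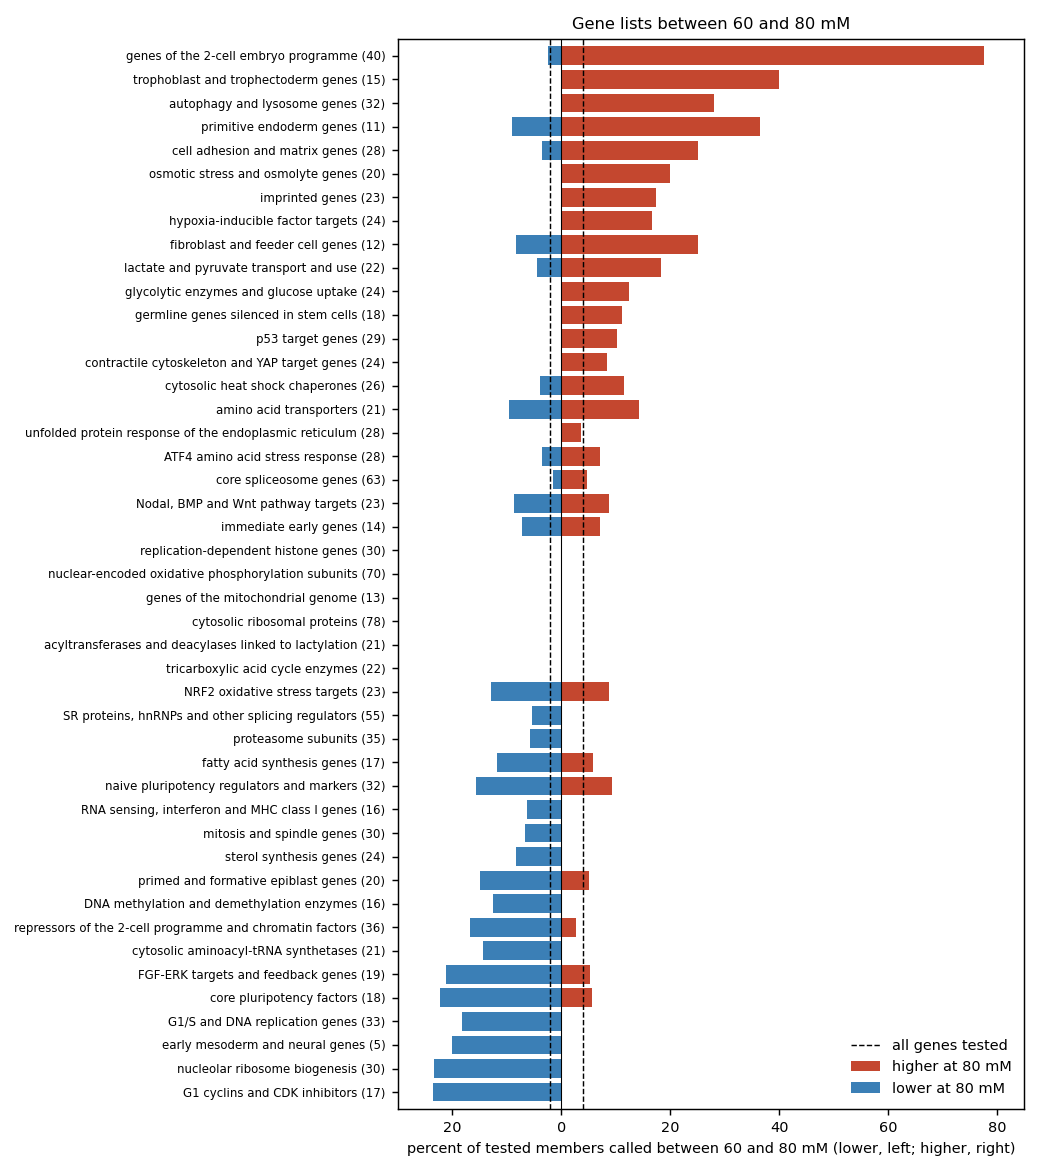
Percent of tested members of 45 gene lists called higher (red, right) or lower (blue, left) at 80 than at 60 mM, with the number tested in parentheses; dashed lines mark 4.06% and 2.11%, the shares among all genes tested. The 2-cell list reaches 77.5% higher, and 6 lists, the histone, ribosomal protein, oxidative phosphorylation, mitochondrial genome, lactylation and tricarboxylic acid cycle genes, have 0 called members. Members that passed the filter only through the 80 mM libraries are included.

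Sets of genes defined in the other libraries were followed through the step. Genes called with a change of at least 1 against embryonic stem cells numbered 2046 higher (12.5% of 16358 tested) and 4339 lower (26.5%) in 2-cell-like cells, 2106 higher (12.9%) and 1292 lower (7.9%) in epiblast stem cells, and 3466 higher (21.2%) and 3352 lower (20.5%) in fibroblasts. Of the 2-cell-like set, 886 higher genes were tested in the lactate table, and 205 of them (23.1%) rose and 9 (1.02%) fell in the step, against 4.06% and 2.11% of all genes, with a median of 0.17 (122 and 4 without 60 mM replicate 1). The 4194 genes that are lower in 2-cell-like cells gave 68 rises (1.62%) and 147 falls (3.51%), with a median of -0.01. Of 1288 genes higher in epiblast stem cells 87 rose (6.75%) and 21 fell (1.63%). Of 2056 genes higher in fibroblasts 147 rose (7.15%) and 13 fell (0.632%), or 64 and 4 without 60 mM replicate 1. Of 3236 genes lower in fibroblasts 78 rose (2.41%) and 180 fell (5.56%), and of 1241 genes lower in epiblast stem cells 62 rose (5%) and 65 fell (5.24%). The summed level of 8 fibroblast markers was 3.43 to 4.73 FPKM at 60 mM and 4.7 to 5.22 at 80 mM, and the part of fibroblasts in these counts was not tested. The sets overlap, and the filter of the cell-state table admits genes that are low in stem cells. Genes that passed the lactate filter only through the 80 mM libraries were not set apart here or among all genes. This can raise the shares that rose. The 2 tables were normalized separately and were not set against each other in level.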

How the data were processed

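Total RNA of 9 lactate libraries was extracted with Trizol and sequenced on a MiSeq after TruSeq preparation, per the labels' protocols. The authors deposited FPKM values per gene, and the submitters' processing notes name HISAT2 2.0.4, StringTie 2.1.4 and mm10. Rows sharing a name were summed. Whole reads could not be recovered, so depth is unknown and no counting interval is given. Genes that reached 1 FPKM in 3 or more of the 9 libraries were tested on log2(FPKM + 1) with limma 3.58.1 in R 4.3.3, with a mean trend, 1 fit over 3 groups and Benjamini-Hochberg adjustment at 0.05. Loci are those of GENCODE M21, which matched 53292 names. The fit was tested on simulated data. Values of 2 genes that the naming rule picks are not reported here. Members that passed the filter only through the 80 mM libraries are described with no test. The named genes are the 12 largest called rises and falls of at least 5 FPKM without overlap and without predicted-gene names, the 6 largest responses of each class, 4 anchors and the 4 largest called members of each list, and the 3 largest departures from the line. The rule, the members and the lists were chosen with earlier results of these data known. Alternatives were pseudocounts of 0.1 and 5, filters of 0 and 5 FPKM, median-ratio and quantile normalization, no trend, 2 groups only, a replicate block, other class limits, and each library left out. Figures were drawn with matplotlib 3.10.9.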

Additional observations from a re-analysis of the deposited data

How the results depend on the processing

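Depth is unknown, and with 3 libraries a dose the median half-width of a step interval was 0.172 on the log2 scale, so smaller changes are mostly not detectable. With no filter on low values the step called 321 higher and 135 lower genes, with no mean trend 166 lower, and at 5 FPKM 2626 genes were higher at 80 than at 0 mM. Above the line were 3 genes with no filter, 17 at 5 FPKM, 14 under quantile normalization and 1 each with no trend and with the block, and below it 4, 35, 14, 6 and 6, with 25 at a pseudocount of 5. Rises that went on numbered 123 and 22 at pseudocounts of 0.1 and 5, 49 with no filter and 249 for responses of at least 0.5, and falls 10 at a pseudocount of 5, 11 with no filter and 60 at 0.5. Levelled rises numbered 3 at a pseudocount of 5, 29 at 5 FPKM, 480 for responses of 0.5 and 11 with an interval of 0.3, and levelled falls 8, 23, 395 and 16. Undecided rises numbered 337 and 1 at pseudocounts of 0.1 and 5, 58 with no filter, 10 at 5 FPKM, 13 under quantile normalization, 225 for responses of 0.5 and 61 with an interval of 0.3, and undecided falls 117 and 3 at the pseudocounts, 12 at 5 FPKM, 79 and 43. Genes that turned back were 4 and 0 at the pseudocounts, 0 with no filter, 1 each under quantile normalization, no trend and the block, and 6 for responses of 0.5, and quantile normalization gave 1 late gene. The causes were not tested.

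Leaving out single libraries gave 237 to 532 higher and 106 to 265 lower genes in the step, 2601 to 3018 and 2034 to 2455 at 60 against 0 mM, 3510 to 3922 and 2675 to 3029 at 80 against 0 mM, 1 to 7 above and 4 to 11 below the line, 53 to 89 rises and 12 to 17 falls that went on, 36 to 51 and 28 to 48 that levelled off, 32 to 67 and 18 to 27 undecided, 0 to 3 that turned back and 0 to 2 late genes. With the replicate number as a block the step called 423 higher and 200 lower genes. Whether equal numbers pair the samples is not stated in the labels. The deviations of same-numbered 60 and 80 mM libraries correlated at 0.0352, 0.0085 and 0.0276 across genes. Those of differently numbered 60 and 80 mM libraries correlated at -0.0305 to 0.0076. With 3 libraries a dose these values neither show nor exclude a shared culture or day. Of 147 named genes called in the step, 60 were lost without 60 mM replicate 1, 55 with no filter and 40 with no trend, and 0 changed sign under any of these 3.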

Other observations

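Shares called in the remaining gene groups are read against 4.06% higher and 2.11% lower among all genes tested. Of 29 tested p53 target genes 3 rose (10.3%) and 0 fell, with the same counts without 60 mM replicate 1. Ddit4l, a relative of the mTOR inhibitor gene Ddit4, was 4.78, 4.203 and 4.86 FPKM at 60 mM and 7.27, 6.14 and 7.92 at 80 mM (log2 change 0.53 ± 0.09, adjusted p = 0.0124). Plk2, a kinase induced by stress, was 37.1, 34.5 and 34.2 FPKM at 60 mM and 44.8, 45.03 and 44.7 at 80 mM (log2 change 0.34 ± 0.04, adjusted p = 0.00348). Phlda3, an inhibitor of Akt signalling, rose by 0.22, while the cell cycle inhibitor gene Cdkn1a had a step of 0.18 with a 95% interval of 0.03 to 0.33. Of 26 heat shock genes 3 rose and 1 fell (3.85%), or 1 and 0 without 60 mM replicate 1. Hspa1a, an inducible chaperone with a near-identical neighbouring copy, was 2.65, 2.44 and 3.12 FPKM at 60 mM and 4.38, 3.58 and 3.78 at 80 mM (log2 change 0.40 ± 0.10, adjusted p = 0.0448), and the small heat shock gene Cryab was 6.18, 5.34 and 4.98 FPKM at 60 mM and 7.92, 6.86 and 8.17 at 80 mM (log2 change 0.41 ± 0.09, adjusted p = 0.0245).

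Of 17 germline genes 1 rose (5.88%), Zcwpw1 by 0.32, and 0 did without 60 mM replicate 1; Taf7l, which passed the filter only through its 80 mM libraries, is left out. In lipid synthesis, Fads2, a fatty acid desaturase, was 25.1, 24.6 and 25.8 FPKM at 0 mM, 28.8, 29.6 and 28.5 at 60 mM and 24.4, 22.6 and 24.6 at 80 mM, higher at 60 than at 0 mM (called) and near the 0 mM libraries at 80 mM (log2 change -0.27 ± 0.04, adjusted p = 0.00654). The desaturase gene Scd2 and the sterol genes Idi1 and Hmgcs1 fell by 0.17, 0.25 and 0.13 on the log2 scale. Of 23 oxidative stress genes of the NRF2 pathway 2 rose (8.7%) and 3 fell (13%), among the latter Mt1, a metallothionein that binds metals (69.4, 75.2 and 70.7 FPKM at 60 mM and 61.5, 58.8 and 59.03 at 80 mM, log2 change -0.26 ± 0.04, adjusted p = 0.00741). Tet1, which oxidises methylated cytosine, fell by 0.28, and the DNA methyltransferase genes Dnmt1 and Dnmt3b had step intervals of -0.20 to -0.04 and -0.02 to 0.18. Top2a, the topoisomerase of mitosis, was 71.1, 68.9 and 72.3 FPKM at 60 mM and 59.6, 60.4 and 59.7 at 80 mM (log2 change -0.24 ± 0.03, adjusted p = 0.00288). The amino acid and related transporters gave 3 rises (14.3%) and 2 falls (9.52%) among 21 tested, led by the creatine transporter Slc6a8 at 0.39.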
